A study of Mus musculus with 8 samples.

Results

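The genes described here encode the proteins of the mitochondrial ribosome, and they were followed in livers from mice with diet-induced metabolic dysfunction-associated steatohepatitis (MASH). Members were all protein-coding genes of the GRCm38 annotation whose symbol starts with Mrpl or Mrps and a number, which gave 78 of the 52636 genes counted, and 77 of them had enough counts to be tested. Liver RNA came from 8 male C57BL/6J mice, of which 4 had been given AAV8-GFP (mice 303, 311, 314 and 315) and 4 AAV8-AGXT (mice 308, 309, 316 and 319). AAV8 is an adeno-associated virus that reaches the liver. In both groups its cargo, GFP or human AGXT, was driven by the thyroxine binding globulin (TBG) promoter, which is active in hepatocytes, so other liver cells were not meant to express it. Mice were injected when 7 weeks old, and from an age of 8 weeks all of them were kept for 24 weeks on a MASH diet rich in fat, fructose and cholesterol. AGXT is the liver enzyme that converts glyoxylate to glycine, and the comparison asks how its overexpression changed the liver transcriptome under this diet.

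Mitochondria translate a small set of proteins, all of them made from messages of mitochondrial DNA and most of them subunits of the respiratory chain. Their ribosome has ribosomal RNAs copied from mitochondrial DNA, but every one of its proteins is encoded in the nucleus, made in the cytosol and imported. Many of these proteins descend from bacterial ribosomal proteins, and others are found only in mitochondria. The small subunit (Mrps genes) reads the message and the large subunit (Mrpl genes) joins the amino acids, with a few exceptions to this naming. Hepatocytes are rich in mitochondria, which carry out fatty acid oxidation and part of urea synthesis.

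Counts on genes came to 19747909 to 28780140 read pairs in AAV8-GFP livers and to 17095433 to 23940200 in AAV8-AGXT livers (two-sided exact permutation p = 0.171). Levels are given as CPM, which are counts scaled to a common library size, with TMM (trimmed mean of M values) factors that were 1.02 to 1.14 in AAV8-GFP and 0.83 to 1.00 in AAV8-AGXT livers (two-sided exact permutation p = 0.0286, the smallest that 4 against 4 can give). Mouse 308 stood apart, with the lowest share of read pairs on genes (56.3%) and the lowest TMM factor (0.83). Mouse Agxt, which the human transgene does not encode, had a mean of 163.8 ± 15.8 CPM in control livers and of 305.2 ± 98.3 CPM in AAV8-AGXT livers (SD over 4 mice each) (log2 fold change 0.90, SE 0.22, edgeR quasi-likelihood adjusted p = 0.0489). With 1 mouse left out at a time, this call held in 1 of 8 fits, that without mouse 309 (edgeR adjusted p 0.0316 to 0.146). Read pairs were aligned to the mouse genome, and whether pairs from human AGXT were counted on mouse Agxt was not tested. All 8 hepatocyte markers listed were detected in every mouse.

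The promoter regions of some members show how these genes are laid out. Printed here are stretches of the 250 bases before the RefSeq start (GRCm38.p6) that hold no annotated exon, read in the direction of the gene. Capitals mark the letters CCGGAAG, the core of sites bound by ETS factors such as GABPA, and GCGCATGC, the core of sites bound by NRF1, on either strand. Both factors are known regulators of nuclear genes for mitochondrial proteins. Mrps12 and Mrps36 are shown because they had the highest and the lowest fold change among members, Mrpl17 because it was among the highest and holds ETS letters, Mrpl43 for its pair of ETS letters beside Twnk, the mitochondrial DNA helicase gene, and Mrpl22 because it holds both kinds of letters.
Mrps12, chr7:28741822-28741991, minus strand: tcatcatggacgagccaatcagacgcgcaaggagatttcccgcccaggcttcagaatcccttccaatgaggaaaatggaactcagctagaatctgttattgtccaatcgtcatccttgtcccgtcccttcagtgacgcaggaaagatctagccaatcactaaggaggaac
Mrpl17, chr7:105811100-105811337, minus strand: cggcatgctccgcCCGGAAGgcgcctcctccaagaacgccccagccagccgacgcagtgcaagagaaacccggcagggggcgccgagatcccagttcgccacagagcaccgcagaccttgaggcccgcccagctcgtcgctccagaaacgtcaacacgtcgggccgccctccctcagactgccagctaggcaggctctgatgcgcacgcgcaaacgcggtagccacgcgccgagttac
Mrpl43, chr19:45006443-45006557, minus strand: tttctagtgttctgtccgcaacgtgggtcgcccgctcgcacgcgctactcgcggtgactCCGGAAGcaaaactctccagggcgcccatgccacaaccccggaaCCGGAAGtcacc
Mrpl22, chr11:58171414-58171660, plus strand: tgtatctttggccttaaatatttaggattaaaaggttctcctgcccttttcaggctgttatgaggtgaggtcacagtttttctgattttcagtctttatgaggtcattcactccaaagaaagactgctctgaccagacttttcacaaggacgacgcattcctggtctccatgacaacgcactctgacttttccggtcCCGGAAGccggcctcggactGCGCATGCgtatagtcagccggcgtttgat
Mrps36, chr13:100744660-100744909, minus strand: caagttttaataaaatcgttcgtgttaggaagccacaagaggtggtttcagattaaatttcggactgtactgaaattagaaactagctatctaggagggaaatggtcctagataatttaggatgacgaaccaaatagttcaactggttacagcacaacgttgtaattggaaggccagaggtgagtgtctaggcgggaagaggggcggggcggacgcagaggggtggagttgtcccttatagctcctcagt

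In the whole promoter window, from 250 bases before to 50 after the start, 69 members could be matched to RefSeq. CCGGAAG was held by 24 of them (34.8%), against 17.7% of the 10402 tested protein-coding genes with a window. GCGCATGC was held by 8 (11.6%, against 5.19%), and AAGATGGC, the core of sites bound by YY1, by 12 (17.4%, against 4.44%). The searches covered both strands, and the 3 motifs could overlap. At least 1 of the motifs stood in 36 member windows (52.2%, against 25%). The median log2 fold change between treatments was 0.13 for members with any of these letters and 0.14 for those without, so the letters did not separate members by their difference in these livers.

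Many members also lie head to head with another gene. Of the 78 members, 33 (42.3%) had the 5′ end of a protein-coding gene on the opposite strand within 1000 bases of their own, against 15.3% of the 13216 tested protein-coding genes. The neighbour of Mrpl46 is another member, Mrps11, at 412 bases. Other neighbours belong to the respiratory chain (Ndufs6, 29 bases from Mrpl36, and Ndufb5, 615 bases from Mrpl47) or to mitochondrial tRNA charging (Sars2, 172 bases from Mrps12). Of the neighbours, 29 were tested and none was called. Members lay on 17 chromosomes, with at most 11 on one of them, chromosome 11.

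No member was called higher or lower in AAV8-AGXT livers at an adjusted p under 0.05 (edgeR quasi-likelihood test, adjusted over 15248 genes), whereas 2.45% of all tested genes were called higher and 1.9% lower. The fitted differences were small and mostly on one side. The log2 fold change was positive for 60 of the 77 tested members, against 52.3% of all tested genes, and its median was 0.14, against 0.018 for all tested genes. Single members ran from -0.26 for Mrps36 to 0.48 for Mrps12. At an unadjusted p under 0.05, 16 members were higher and 0 lower, beside backgrounds of 13.5% and 12.6%. The DESeq2 Wald test called 3 of the 77 members higher (Mrps12, Mrpl15 and Mrps31), beside 1077 of all 15248 tested genes. The limma-voom test called 0 members higher, beside 404 of all tested genes. The side depends on the scaling: with total counts in place of TMM factors, the median was -0.12 for members and -0.22 for all genes, and 19 members were positive. Relative to all genes, the members' median was 0.12 higher with TMM factors and 0.10 higher with total counts. Because these are bulk livers, fewer cells of a type and less RNA per cell cannot be told apart in any of these values.

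**Figure D1:**
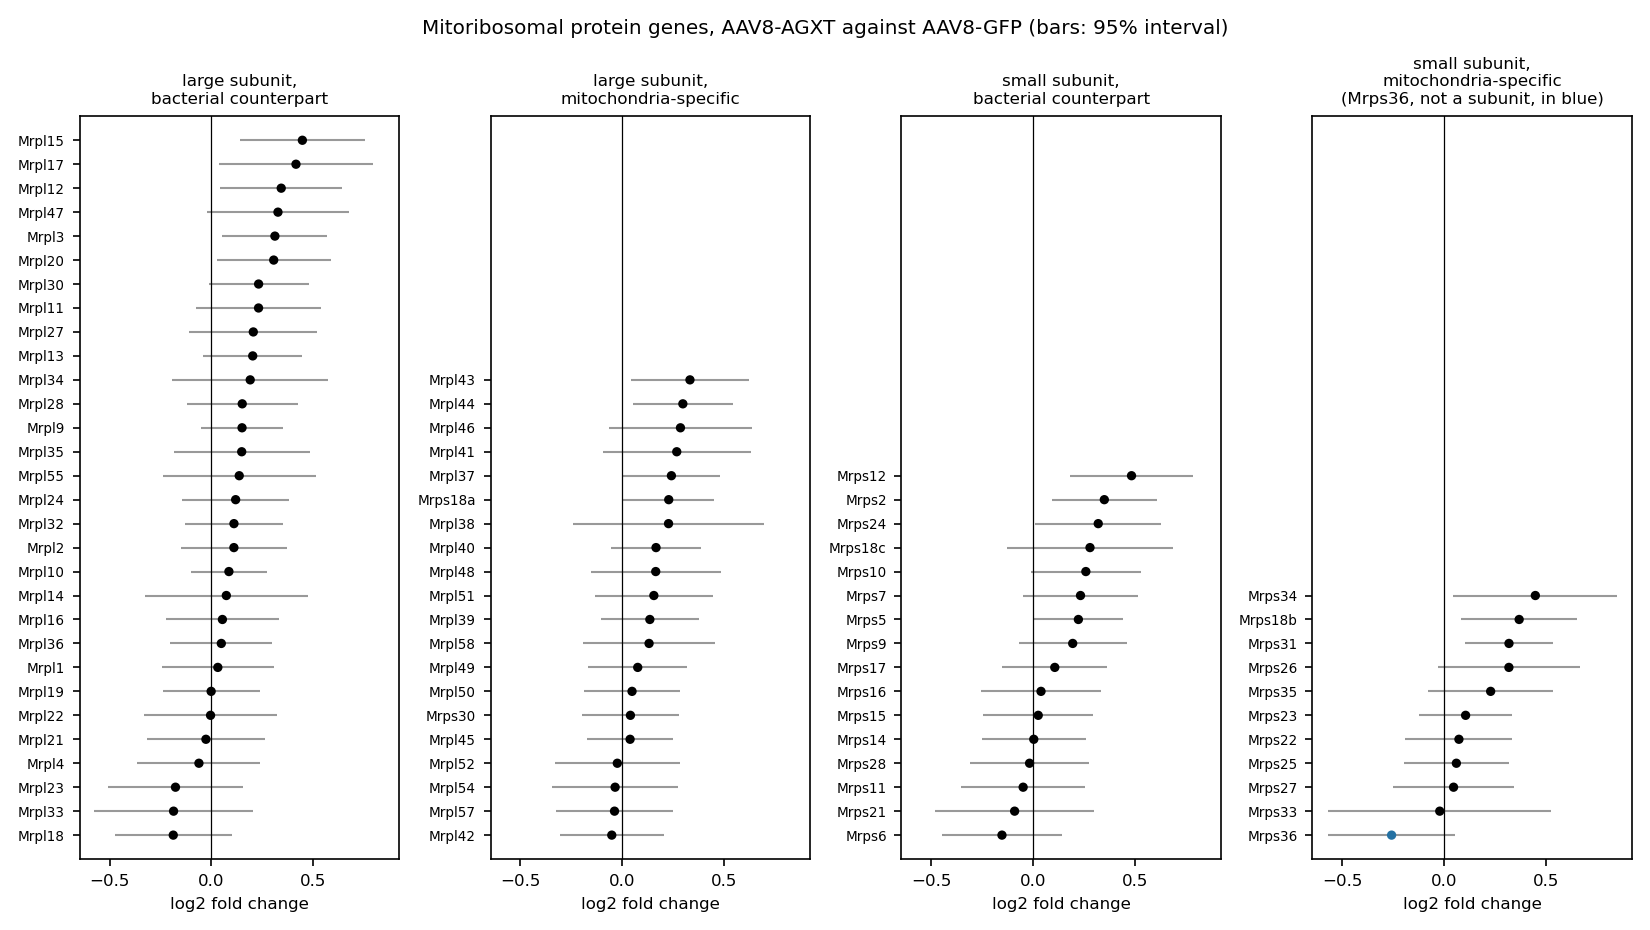
Log2 fold change of each tested mitoribosomal protein gene (x axis, AAV8-AGXT against AAV8-GFP, 4 mice each), with its 95% interval, in panels by subunit and origin, with Mrps36, which is not a subunit, in blue in the last panel. Points run from -0.26 to 0.48, most of them right of zero in each panel, and 16 intervals lie wholly above zero, 0 below.

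The spread of the members was narrow. Their central 90% ran from -0.16 to 0.38 on the log2 scale, against -0.99 to 0.66 for all tested genes, as the plot of cumulative shares shows. For all 77 tested members the 95% interval stayed within a 2-fold difference in either direction, and for 61 it stayed within 1.5-fold. Between 156 and 3083 read pairs per mouse stood behind each tested member. For the scarcest members counting error is a sizeable part of the differences between mice.

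**Figure D2:**
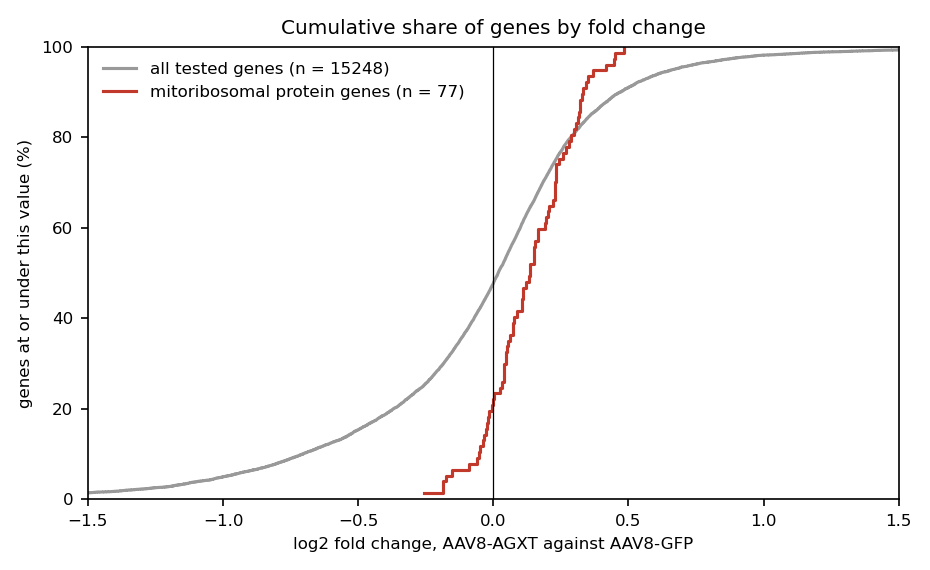
Cumulative share of genes (y axis, %) at or under each log2 fold change (x axis, cut at -1.5 and 1.5) for the 77 tested mitoribosomal protein genes and for all 15248 tested genes. The curve of the members is steeper and crosses zero lower, since 77.9% of members and 52.3% of all genes had a positive value.

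Medians were close between the subunits and between the origins of the proteins. The 50 tested large-subunit members had a median log2 fold change of 0.14, with 39 positive, and the 26 small-subunit members one of 0.15, with 21 positive. Among large-subunit proteins the median was 0.13 for the 30 with a bacterial counterpart and 0.15 for the 20 specific to mitochondria. Among small-subunit proteins it was 0.15 for 16 and 0.17 for 10. Summed CPM of the large subunit was 2.53 ± 0.049 times that of the small subunit (SD, n = 4) in AAV8-GFP and 2.46 ± 0.061 times (SD, n = 4) in AAV8-AGXT livers. That ratio reflects the numbers of genes summed, 50 and 26, and transcript lengths as well as abundance. Per kilobase of exon, the ratio of the median levels was 1.79 ± 0.057 and 1.84 ± 0.10 (SD over 4 mice each). It differs from the first ratio in using medians as well as in its scaling by length. The order of the groups was the opposite, and for both ratios the ranges of the groups overlapped.

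With TMM factors, mouse 308 carried much of the difference between the groups. The members' summed level was 2839, 2741, 2521 and 2888 CPM in AAV8-GFP mice 303, 311, 314 and 315. In AAV8-AGXT mice it was 3533 CPM in 308, 2554 in 309, 2890 in 316 and 3202 in 319. The groups overlapped, since mouse 309 lay below 3 of the AAV8-GFP mice. Means were 2747 ± 163 CPM and 3045 ± 420 CPM (SD, n = 4 each). Mouse 308 had the highest level of 54 of the 77 tested members, and mouse 309 the lowest of 34. Without mouse 308 the members' median log2 fold change was 0.041, against -0.018 for all genes. Without AAV8-GFP mouse 314, which was lowest for 21 members, it was 0.076. Without mouse 309 it was 0.19 and 3 of the 77 members were called higher, beside 379 of the 15796 genes tested in that fit. The 3 were Mrps12 (adjusted p = 0.0374), Mrpl15 (0.0479) and Mrpl12 (0.0496), all in edgeR's quasi-likelihood test. As a share of all counts on genes, with no TMM factor, the members took 0.298 ± 0.016% in AAV8-GFP and 0.279 ± 0.020% in AAV8-AGXT livers (SD, n = 4 each), the opposite order. By this share mouse 308 (0.293%) lay below AAV8-GFP mice 303 (0.310%), 311 (0.311%) and 315 (0.295%) and above mouse 314 (0.277%). In CPM, its sum over all tested genes was also the highest (1204115, against an AAV8-GFP mean of 921009). Its median log2 difference from the AAV8-GFP mean was 0.34 over the members and 0.050 over all tested genes.

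The members varied less between mice than most genes did. Their median coefficient of variation was 8.72% among AAV8-GFP mice, against 15.1% for all tested genes, and 15.2% among AAV8-AGXT mice, against 18.6%. The coefficient was larger in AAV8-AGXT mice for 63 of the 77 members, against 63.3% of all tested genes. Genes were not matched by level here, and each tested member had at least 156 counts in every mouse. The part of expression level in these differences was not tested.

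Mrps12, the counterpart of the bacterial S12 protein of the decoding centre, had the highest fold change. Its level was 29.1, 29.8, 32.7 and 35.3 CPM in AAV8-GFP mice 303, 311, 314 and 315, and 52.8, 34.7, 41.7 and 48.2 CPM in AAV8-AGXT mice 308, 309, 316 and 319. The groups overlapped only in that mouse 309 lay just under mouse 315. The fold was 1.40 (log2 fold change 0.48, SE 0.14, adjusted p = 0.0709, edgeR), the lowest adjusted p of any member. DESeq2 called Mrps12 higher (adjusted p = 0.0216). Its head-to-head neighbour Sars2, the seryl-tRNA synthetase of mitochondria, had a log2 fold change of 0.13 (SE 0.14).

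Mrpl15, a large-subunit protein with a bacterial counterpart, was at 52.5, 45, 43.5 and 44.8 CPM in AAV8-GFP mice (in the same order) and at 75, 49.8, 57.3 and 71.3 CPM in AAV8-AGXT mice. Mouse 309 lay below mouse 303, and the other AAV8-AGXT mice lay above all AAV8-GFP mice. The log2 fold change was 0.45 (SE 0.14, edgeR adjusted p = 0.0836), and DESeq2 called it higher (adjusted p = 0.0451). Mrpl17 was at 85.8, 70.1, 61.8 and 71.0 CPM in AAV8-GFP mice and at 119.1, 69.0, 90.8 and 106.4 CPM in AAV8-AGXT mice, with mouse 309 again inside the control range. Its log2 fold change was 0.42 (SE 0.17, edgeR adjusted p = 0.159).

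Mrps34, a small-subunit protein specific to mitochondria, was at 10.2 ± 0.98 and 14.0 ± 3.5 CPM (SD over 4 mice each, log2 fold change 0.45, SE 0.18, edgeR adjusted p = 0.154). Mice 308 (17.6 CPM) and 319 (16.3 CPM) stood above the rest, and mice 309 and 316 (10.6 and 11.4 CPM) were close to the AAV8-GFP mice, whose highest value was 11.2 CPM. The exons of Mrps34 overlap those of Nme3 on the same strand, so its count is uncertain. In all, 33 of the 78 members overlap an exon of another gene, 8 on the same strand and 28 on the opposite one. Same-strand overlap also makes the counts of Mrpl3 (with Gm38077), Mrpl33 (Gm43809), Mrps18c (Gm43511) and Mrps6 (Slc5a3 and Gm49711) uncertain. Over the 45 tested members without any overlap the median log2 fold change was 0.11.

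The family that descends from bacterial S18 has 3 members, which sit at different places in the mitoribosome. Mrps18b, in the small subunit, was at 12.7, 13.4, 14.7 and 17.3 CPM in AAV8-GFP mice and at 18.4, 20.2, 16.7 and 19.8 CPM in AAV8-AGXT mice, and here mouse 309 was the highest of all. Its log2 fold change was 0.37 (SE 0.13, edgeR adjusted p = 0.108), and the groups overlapped in mice 315 and 316. Mrps18c, the small-subunit form in the place of the bacterial protein, had a log2 fold change of 0.28 (SE 0.18, edgeR adjusted p = 0.362). Mrps18a, which in spite of its name belongs to the large subunit, had one of 0.23 (SE 0.10, edgeR adjusted p = 0.181). None of the 3 was called. Mrps30, also a large-subunit protein by structure, was at 23.2 ± 1.74 and 23.9 ± 2.13 CPM (SD over 4 mice each), with a log2 fold change of 0.04 (95% interval -0.20 to 0.28).

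Mrpl12 forms the stalk where translation factors dock on the large subunit. It was at 48.7, 47.9, 46.9 and 51.0 CPM in AAV8-GFP mice and at 66.8, 46.9, 58.6 and 74.5 CPM in AAV8-AGXT mice. AAV8-GFP mice lay close together, whereas AAV8-AGXT mice spread from within that range to well above it. The log2 fold change was 0.34 (SE 0.13, edgeR adjusted p = 0.144). Mrpl58, a peptidyl-tRNA hydrolase that frees stalled mitoribosomes and is also built into the large subunit, had a log2 fold change of 0.13 (SE 0.15, edgeR adjusted p = 0.602).

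In 4 members every AAV8-AGXT mouse lay above every AAV8-GFP mouse, and in 0 members every one lay below. These shares stand beside backgrounds of 8.93% and 7.63% of all tested genes and are not above them. The 4 were Mrpl3, Mrpl44, Mrps2 and Mrps31, of which Mrpl44, Mrps2 and Mrps31 are named here because of their values. Mrps31 was at 24.8, 24.2, 23.3 and 28.4 CPM in AAV8-GFP mice and at 32.9, 30.8, 31.9 and 30.1 CPM in AAV8-AGXT mice. It varied little among AAV8-AGXT mice, and its log2 fold change was 0.32 (SE 0.10, edgeR adjusted p = 0.0814, DESeq2 adjusted p = 0.0334). Mrpl3, of the large subunit near the site of peptide bond formation, was at 16.4 ± 0.94 and 20.3 ± 2.54 CPM (SD over 4 mice each, log2 fold change 0.31, SE 0.12, edgeR adjusted p = 0.128).

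**Figure D3:**
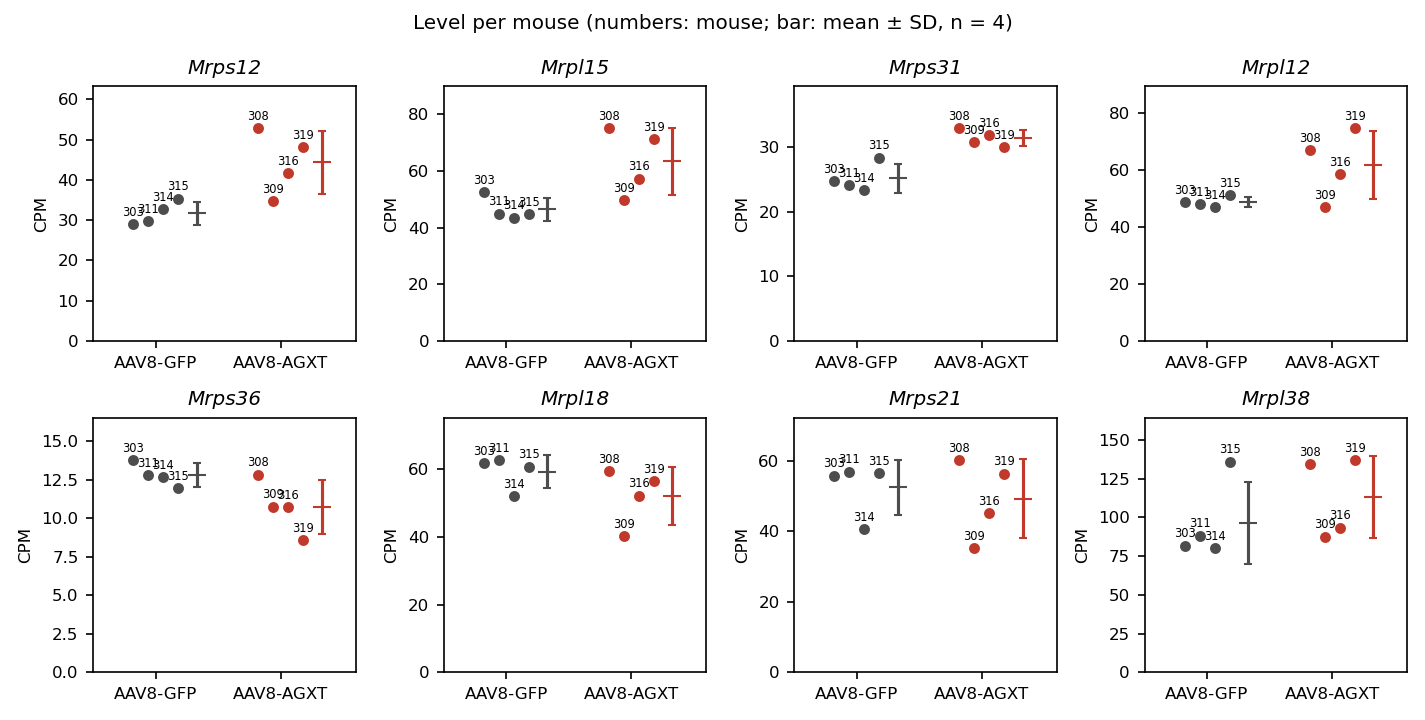
Level (y axis, CPM, from 0) of 8 mitoribosomal protein genes in each mouse, with the mean ± SD of each group (n = 4). Mice 308 and 319 lead in Mrps12, Mrpl15 and Mrpl12, the groups are apart in Mrps31, and mouse 309 is low in Mrpl18 and Mrps21.

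The lowest fold change belonged to Mrps36, which carries a mitoribosomal name but is a component of the 2-oxoglutarate dehydrogenase complex. It was at 13.8, 12.8, 12.7 and 11.95 CPM in AAV8-GFP mice and at 12.8, 10.8, 10.7 and 8.59 CPM in AAV8-AGXT mice. Only mouse 308 reached the control range, and the log2 fold change was -0.26 (SE 0.14, edgeR adjusted p = 0.272). Next came Mrpl18, whose counterpart in other ribosomes binds the smallest ribosomal RNA. It was at 61.8, 62.7, 51.9 and 60.7 CPM in AAV8-GFP mice and at 59.4, 40.2, 52.2 and 56.5 CPM in AAV8-AGXT mice, which gave a log2 difference of -0.19 (SE 0.13, edgeR adjusted p = 0.386). Mrpl33, Mrpl23 and Mrps6 had log2 fold changes of -0.19, -0.18 and -0.15, with edgeR adjusted p of 0.535, 0.482 and 0.491. In Mrpl18, Mrpl33 and Mrpl23, mouse 309 had the lowest level of all 8 mice.

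Mouse 309 was lowest among members with short messages. By the length of the principal transcript, the median log2 difference of mouse 309 from the AAV8-GFP mean was -0.23 over the 24 members under 1000 bases, -0.018 over the 28 members of at least 1000 but under 2000 bases and -0.084 over the 25 longer ones. Over all tested genes with an annotated principal transcript it was -0.33, -0.12 and 0.057 in the same classes (776, 2845 and 9619 genes). Mouse 308 went the other way, with 0.18, 0.087 and 0.011 over all genes, but its members were high at every length (0.36, 0.32 and 0.30). Negative log2 fold changes between treatments were found in 10 of the 24 short members, 5 of the 28 intermediate ones and 2 of the 25 long ones. The part of transcript length in the order of the members was not tested.

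**Figure D4:**
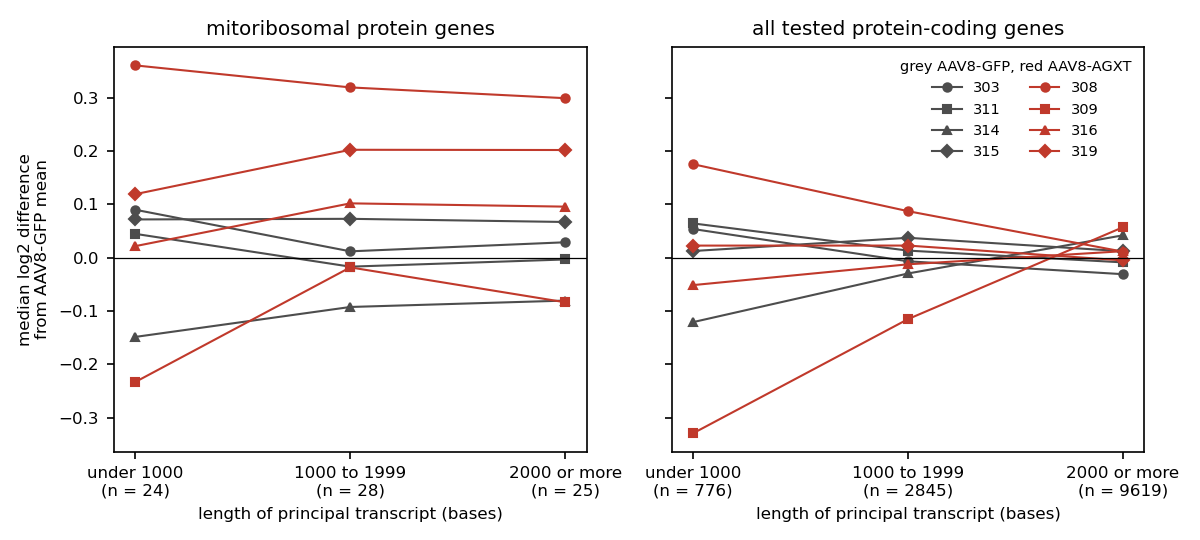
Median log2 difference from the AAV8-GFP mean (y axis) by length of the principal transcript (x axis, bases), 1 line per mouse. Panels show mitoribosomal protein genes and all tested genes with an annotated principal transcript (headed all tested protein-coding genes). Mouse 309 is low among short transcripts in both panels, and mouse 308 stays between 0.30 and 0.36 across all lengths among the members.

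Levels between genes were compared per kilobase of annotated exon. On this scale the highest members were Mrps21 (68.9 CPM per kilobase), Mrpl54 (64.2) and Mrpl34 (60.9), and the lowest were Mrpl19 (2.14), Mrps25 (2.22) and Mrpl3 (2.75). Per kilobase of the principal transcript, Mrpl52 led at 151.5, Mrps21 at rank 2, Mrpl54 at rank 3 and Mrpl34 at rank 9, and the lowest 3 stayed within the last 4 ranks. None of these was called. Mrps21, Mrpl54 and Mrpl34 had log2 fold changes of -0.09 (SE 0.18), -0.03 (SE 0.14) and 0.19 (SE 0.17), and Mrpl19 and Mrps25 of -0.001 (SE 0.11) and 0.06 (SE 0.12).

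Mrpl53 was the member not tested, with 0 counts in 7 mice and 1 count in mouse 316. A count of 0 allows up to 3 counts, or 0.0917 to 0.207 CPM by mouse, for counting error only. Its exons overlap Gm42688 on the same strand and Ccdc142os on the other, so the low count does not show that the gene is silent, and the part of the overlap in it was not tested. Mrpl38, named because of its values, had the widest spread at a high level: 136.0 CPM in AAV8-GFP mouse 315, 134.3 and 137.0 CPM in AAV8-AGXT mice 308 and 319, and 80.3 to 93.4 CPM in the other 5. Mrps33, named for the same reason, was at 40.9 CPM in mouse 303 and at 18.8 to 32.5 CPM in the others.

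Proteins of the mitoribosome that carry other names had differences of similar size. Among Dap3, Ptcd3, Chchd1, Aurkaip1 and Gadd45gip1, none was called, and the median log2 fold change was 0.08. Dap3, a GTP-binding protein of the small subunit, was at 44.0 ± 1.2 and 46.0 ± 4.40 CPM (SD over 4 mice each, log2 fold change 0.07, SE 0.09, edgeR adjusted p = 0.695).

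Other steps of mitochondrial gene expression held few called genes, to be read beside the 2.45% of all tested genes called higher and 1.9% called lower. Of 24 tested genes for assembly of the mitoribosome and modification of its RNA, 1 rose, Mtg1, a GTPase of large-subunit assembly (16.7 ± 1.26 to 23.1 ± 0.51 CPM, SD over 4 mice each, with a log2 fold change 0.47, edgeR adjusted p = 0.0374). The median of the list was 0.08. Of 14 tested factors that start, extend, end or support mitochondrial translation, 2 rose and 0 fell, and the median was 0.28. Mtif3, an initiation factor, rose from 14.3 ± 0.62 to 20.9 ± 2.36 CPM (SD over 4 mice each, log2 fold change 0.55, edgeR adjusted p = 0.0364). Mtrf1, a release factor, was at 6.25, 5.82, 5.95 and 5.91 CPM in AAV8-GFP mice and at 9.46, 9.01, 9.45 and 9.11 CPM in AAV8-AGXT mice. Its groups were far apart and each mouse was close to its own group (log2 fold change 0.63, SE 0.12, edgeR adjusted p = 0.0344). The elongation factor Tufm had a log2 fold change of 0.35 (SE 0.12, edgeR adjusted p = 0.103), and Lrpprc, which stabilizes mitochondrial messages, one of 0.38 (SE 0.10, edgeR adjusted p = 0.0537).

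Of 11 genes that copy and transcribe mitochondrial DNA, 1 rose, Polg, the catalytic subunit of its DNA polymerase, from 45.0 ± 2.21 to 64.6 ± 3.48 CPM (SD over 4 mice each, log2 fold change 0.52, edgeR adjusted p = 0.0276). Tfam, which packages and helps to transcribe that DNA, had a log2 fold change of 0.36 (SE 0.09, edgeR adjusted p = 0.0597), and Polrmt, its RNA polymerase, one of 0.07 (SE 0.10, edgeR adjusted p = 0.718). Of 10 nuclear regulators none was called. Among them Nrf1 had a log2 fold change of 0.04 (SE 0.13), Gabpa 0.25 (SE 0.15) and the coactivator Ppargc1a 0.52 (SE 0.18, edgeR adjusted p = 0.107). None of 20 genes for mitochondrial tRNA charging and none of 13 mitochondrial chaperones and proteases was called, with medians of 0.14 and 0.23.

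Genes for the products and partners of the mitoribosome were read for comparison. The 77 tested nuclear subunits of oxidative phosphorylation had the same median as the members, 0.14, with 68 positive and 1 called higher, Sdhd, a subunit of complex II (log2 fold change 0.51, edgeR adjusted p = 0.0489). Of 22 tested import genes of the Timm and Tomm families, Timm23, Tomm70a and Timm29 rose (2.45% of all tested genes were called higher), with a median of 0.20 over the list. These calls did not hold in every fit. Calls over all tested genes also fell, from 374 higher and 290 lower to 2 and 0 without mouse 311. Without mouse 314 they were 11 and 4, and without mouse 319 they were 12 and 2. A call lost in these fits does not set its gene apart from other called genes. With 1 mouse left out at a time, edgeR called Polg in 5 of 8 fits (adjusted p 0.0309 to 0.115), Mtif3 in 3 (0.0376 to 0.136), Timm23 in 3 (0.0402 to 0.128), Mtrf1 in 2 (0.0448 to 0.135), and Mtg1, Sdhd, Timm29 and Tomm70a in 1 each (up to 0.127, 0.166, 0.158 and 0.166). Polg lost its call without mouse 311, 314 or 319, and so did the other 7 genes. Mtif3, Timm23, Mtrf1, Mtg1, Sdhd, Timm29 and Tomm70a also lost it without mouse 303 or 308, Mtrf1, Mtg1 and Sdhd without mouse 316, Mtg1, Sdhd, Timm29 and Tomm70a without mouse 315, and Timm29 and Tomm70a without mouse 309.

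The 81 tested proteins of the cytosolic ribosome had a median of 0.003, with 41 positive and none called. In mouse 309 their median difference from the AAV8-GFP mean was -0.40, and in mouse 308 it was 0.20. In the translation factors all AAV8-AGXT mice lay above all AAV8-GFP mice (0.19 to 0.39, against -0.046 to 0.056), whereas in the members and in the oxidative phosphorylation genes mouse 309 lay within or below the control range.

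**Figure D5:**
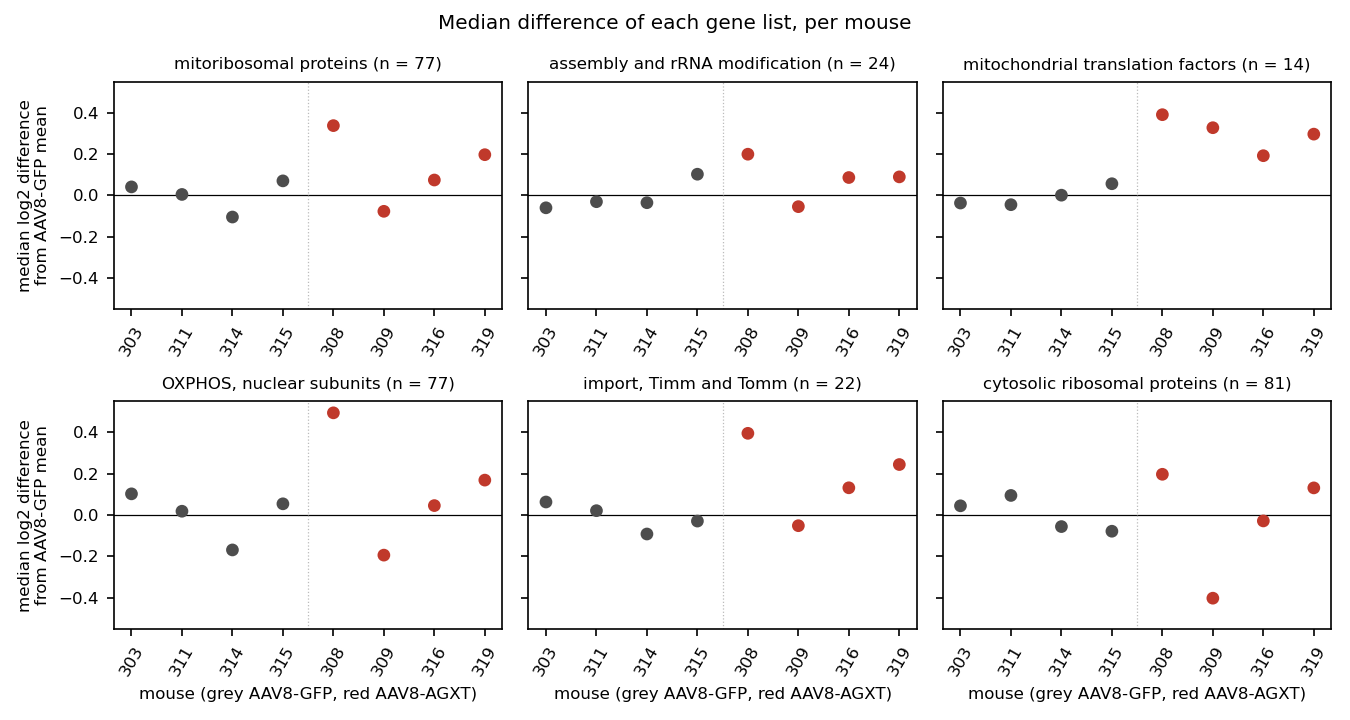
Median over the genes of each list of the log2 difference from the AAV8-GFP mean (y axis) in each mouse (x axis). Mouse 308 is highest and mouse 309 lowest among AAV8-AGXT mice for the mitoribosomal, oxidative phosphorylation, import and cytosolic ribosomal lists, and for translation factors all AAV8-AGXT mice lie above the AAV8-GFP mice.

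Markers of liver cell types moved with the members in some of these mice. The summed level of 8 hepatocyte markers was 45784 to 55614 CPM in AAV8-GFP and 56655 to 79553 CPM in AAV8-AGXT livers. The highest values were in mice 308 and 319, the mice that were also highest for the members. Mouse 309 did not follow this, with 61135 CPM for the hepatocyte markers, above every AAV8-GFP mouse. Its summed level of the members was 2554 CPM, below the AAV8-GFP mean of 2747 CPM. Mice 308 and 319 also had the lowest TMM factors (0.83 and 0.89) and the highest sums over all tested genes (1204115 and 1128720 CPM). In AAV8-GFP mice those sums were 879515 to 979219 CPM, and the part of scaling in the marker sums was not tested. Alb had the most counts of the hepatocyte markers (622215 to 847175 by mouse). Of the hepatocyte markers Cps1, the entry enzyme of the urea cycle, was called higher, and the median log2 fold change was 0.46. The sum of 8 stellate cell and fibroblast markers ranged from 528 to 936 CPM and from 214 to 588 CPM, with Acta2 called lower, and the lowest sums were those of mice 308 and 319. The same was so for 5 cholangiocyte markers (225 to 673 CPM, against 74.1 to 272 CPM), with none called. Spp1 made up much of these sums, with 874 to 19977 counts by mouse, against at most 826 for any other of these markers. Sums of 8 macrophage markers (502 to 882 CPM, against 213 to 624 CPM) and of 6 endothelial markers (125 to 189 CPM, against 134 to 240 CPM) overlapped between groups, with none called. The macrophage markers went both ways, with 3 positive and 5 negative log2 fold changes, from -1.42 to 2.49. Of 5 genes of cycling cells, Cdk1, Mki67 and Ccnb1 were called lower, and the sums were 20.2 to 34.0 and 4.21 to 12.4 CPM. The 6 lymphocyte markers (8.82 to 14.8 and 4.07 to 9.66 CPM) and the 2 of 4 neutrophil markers that were tested (4.23 to 12.4 and 2.07 to 8.54 CPM) were scarce and not called, and Ly6g alone was at 0 counts, in 7 mice. With 1 mouse left out at a time, Cdk1 was called in 7 of 8 fits (not without mouse 311, adjusted p 0.0648), Cps1 in 4 (not without mouse 303, 311, 314 or 319, up to 0.117) and Mki67 in 2 (those without mouse 308 or 315, up to 0.146), whereas Ccnb1 and Acta2 were called in 0 of 8 (0.0506 to 0.155 and 0.0575 to 0.116). The part of cell composition in the levels of the mitoribosomal genes was not tested.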

How the data were processed

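Liver RNA of 8 mice was sequenced by the authors as stranded mRNA libraries, 1 per mouse. Per the study's methods and the submitters' processing notes, the authors trimmed read pairs with Trimmomatic 0.35, checked them with FastQC 0.11.8, used HISAT2 2.1.0.13 for alignment to GRCm38, and obtained gene counts from HTSeq on the annotation of Ensembl release 90. The strand option and overlap mode of the counting are not given in the sources used here. The deposited values are raw counts, and the 5 tally rows that name no gene were left out of library sizes; counts on genes were 56.3% to 69.1% of all tallied pairs. Groups come from the sample titles.

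Here, counts were tested with edgeR 4.0.16 in R 4.3.3 (filterByExpr, TMM, quasi-likelihood F test, treatment only, Benjamini-Hochberg over 15248 genes, called at an adjusted p under 0.05). The common biological coefficient of variation was 23.3%. Log2 fold changes use edgeR's prior count of 0.125. Symbols, exons and overlaps came from GENCODE M21 (Ensembl release 96, GRCm38). Alternatives were DESeq2 1.42.0, limma-voom (limma 3.58.1), other scalings and filters, and each mouse left out, 15 in all. The scripts were tested on simulated data. Named members were the 5 highest and 5 lowest fold changes, the 3 highest and 3 lowest levels per kilobase of exon, Mrpl12, Mrps18a, Mrps18b, Mrps18c, Mrps30, Mrps36 and Mrpl58, and the member that was not tested; other genes were the called ones of each list and Dap3, Tufm, Lrpprc, Tfam, Polrmt, Nrf1, Gabpa and Ppargc1a. The members, the lists and the naming rule were chosen with earlier results of these data known. Replicates are separate mice. Levels per principal transcript, values relative to all genes, the summed level without mouse 308, the split by transcript length and the spread of mitochondrial DNA-encoded genes were added after seeing the data.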

Additional observations from a re-analysis of the deposited data

Results flagged for a closer look

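Within groups of 4 mice, single values that stood apart from the other 3 by Dixon's criterion were looked for in 54 groups of values of the named members, and 4 were found, where chance gives about 1 in 20. Among AAV8-GFP mice, Mrpl15 was at 52.5 CPM in mouse 303, above the other 3 mice, Mrpl34 was at 26.9 CPM in mouse 314 and Mrps21 at 40.6 CPM in mouse 314, both below the other 3 mice. Mouse 314 was also the AAV8-GFP mouse with the lowest summed level of the members, 2521 CPM. Among AAV8-AGXT mice, Mrpl53 was at 0.0514 CPM in mouse 316, which is 1 count, and at 0 counts in the others.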

How the results depend on the processing

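No paired analysis was possible because the groups share no mouse numbers. DESeq2 called 3 members higher (main test 0), and 1077 genes higher and 1054 lower over all genes, against 374 and 290. With total counts the medians turned to -0.12 (members), -0.11 (large subunit) and -0.093 (small subunit), and 144 genes were called higher and 857 lower, so that 14.4% of calls were higher, against 56.3%. Upper-quartile factors gave 46.0%. With each mouse left out, members called higher were 0 to 3, the medians ran from 0.041 to 0.19 (members) and 0.032 to 0.19 (large subunit), and all-gene calls from 2 to 379 higher and 0 to 325 lower, with 2 and 0 without mouse 311. Near-zero fold changes changed sign: Mrpl19 (voom 0.0021), Mrps25 (upper quartile -0.0041, total counts -0.18) and Mrps30 (upper quartile -0.025, total counts -0.20, at least 10 counts -0.0016). With total counts, larger ones did so too: Mrpl34 (-0.062, main 0.19), Mrpl58 (-0.12, main 0.13) and Mrps18a (-0.011, main 0.23). With a mouse left out, ranges crossing zero were those of Mrpl19 (-0.033 to 0.025), Mrps25 (-0.014 to 0.11), Mrps30 (-0.033 to 0.080), Mrpl34 (-0.0015 to 0.25), Mrpl54 (-0.15 to 0.057) and Mrps21 (-0.22 to 0.018). The other 290 of 315 comparisons of single named members kept their direction and side of the threshold, and 5 passed it (Mrps12 and Mrpl15 with DESeq2 and without mouse 309, Mrpl12 without mouse 309). Apart from these constructions the cause was not tested. Tested members had at least 156 counts in every mouse.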

Other observations

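The messages that the mitoribosome translates split into 2 sets in these libraries. Of the 13 protein-coding genes of mitochondrial DNA, 7 ranged less than 3-fold between mice: mt-Co1 lay between 11358 CPM in mouse 314 and 16103 CPM in mouse 308, and mt-Cytb, mt-Nd1, mt-Nd2, mt-Nd4, mt-Nd5 and mt-Nd6 also ranged from 1.52-fold to 1.95-fold. The other 6, mt-Atp6, mt-Atp8, mt-Co2, mt-Co3, mt-Nd3 and mt-Nd4l, ranged more than 100-fold. Thus mt-Co3 was at 339.4, 311.2, 10.5 and 15 CPM in AAV8-GFP mice 303, 311, 314 and 315 and at 11.9, 10.3, 2125 and 6.18 CPM in AAV8-AGXT mice 308, 309, 316 and 319, and mt-Co2 at 386.9, 363.7, 16.2, 23.4, 28.2, 23.6, 2269 and 14.3 CPM in the same order. In all 6, mouse 316 had the highest level, and the split did not follow the treatment. None of the 13 was called by edgeR (0 at an unadjusted p under 0.05), and the source of the split was not tested.

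Lars2, the leucyl-tRNA synthetase of mitochondria, was at 2574 CPM in mouse 308 and at 108.6 to 412.0 CPM in the other 7 mice, which made its fitted log2 fold change 1.54 with an SE of 0.95 (edgeR adjusted p = 0.328). The summed level of the 20 genes for mitochondrial tRNA charging was 3021 CPM in mouse 308. Without Lars2 it was 447.0 CPM there, close to 447.1 CPM in mouse 309 and 448.1 CPM in mouse 319.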
